A study of Torulaspora delbrueckii with 17 samples.

Results

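A pair of adjacent genes of the same lengths occurred at 3 places in the genome of the budding yeast Torulaspora delbrueckii, and binding of the proteins Kos3 and Orc1 at these places was compared across mutants by chromatin immunoprecipitation and sequencing. One pair lay beside SLA2 on chromosome 3 (TDEL0C05810 and TDEL0C05820), one near SIR1 on chromosome 5 (TDEL0E00330 and TDEL0E00340) and one on chromosome 7 (TDEL0G00190 and TDEL0G00200). All deposited peaks that overlapped a window around each pair were taken. The windows were 10 kb wide beside SLA2 and on chromosome 7 (31000 to 41000) and 14 kb wide near SIR1 (68000 to 82000). That gave 82 of the 5717 peaks in the 15 deposited lists, with 15 peaks beside SLA2, 39 near SIR1 and 28 on chromosome 7. The 6 genes were among 5174 in the gene table. The places were selected on the presence, position and fold of peaks in these same lists, in wild type and mutants, so these values are a description and were not tested.

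Kos3, which carried a V5 tag, was precipitated from orc1bah cells (2 libraries), orc1P179A cells (2 libraries) and wild-type cells (2 libraries), all of which also carried MYC-tagged Orc1. Orc1-MYC was precipitated from sir2 cells (2 libraries), kos3 cells (1 library), orc1bah cells (2 libraries), orc1P179A cells (2 libraries) and wild-type cells (2 libraries). The labels name the Kos3 tag for the orc1bah and orc1P179A strains and for the strain of wild-type Orc1 library 2, which is also the strain of both wild-type Kos3 libraries, and not for wild-type Orc1 library 1 or for the sir2 and kos3 strains. Both orc1P179A libraries of each protein came from different strains, whereas each of the other groups with 2 libraries, apart from wild-type Orc1, used 1 strain. The series describes paired libraries as technical replicates and no label names separate cultures, so the spread between them may be technical. The 2 further libraries of the series were untagged input DNA, labelled with a strain that no precipitated library came from. All cells were grown in YPD at 30°C and crosslinked with 1% formaldehyde for 1 hour. The labels do not state what the sir2, kos3 and orc1bah lesions are. Peak lists cannot check a genotype.

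Orc1 is a subunit of the origin recognition complex, which marks origins of replication, and it also takes part in silencing in several budding yeasts. Its BAH domain is a nucleosome-binding module. Kos3 belongs to a family of proteins related to Sir1, and Sir1 in Saccharomyces cerevisiae helps to establish silent chromatin at the silent mating-type genes, which is then kept by the histone deacetylase Sir2 and its partners. SLA2 encodes an actin-binding protein of endocytosis and lies beside the mating-type locus in many budding yeasts. Transfer RNA (tRNA) genes are transcribed by RNA polymerase III, and one tRNA gene next to a silent locus of S. cerevisiae acts as a barrier to the spread of silent chromatin.

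The 3 pairs had the same dimensions. One gene of each pair was 400 bp long, a length shared by no other gene of the table, and its partner was 1338 bp long, a length found in 11 genes. The 3 pairs were the only neighbouring genes with this combination of lengths. The gap between the 2 genes was 691 bp beside SLA2 and 685 bp at each of the other places. The gene table (assembly ASM24337v1) gives neither function nor strand for the 6 genes, and no sequences were compared, so how alike the pairs are beyond their lengths is not reported here. Whether a read from a stretch that the pairs share could be placed at its true origin was not tested, and how reads with several possible positions were handled is not given in the sources used here.

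The surroundings fell into 2 kinds. On chromosome 3 the 1338-bp gene TDEL0C05810 (1048723 to 1050060) came first, followed by the 400-bp gene TDEL0C05820 (1050752 to 1051151) and, 108 bp further, by SLA2 (1051260 to 1052435). On chromosome 5 the order was the reverse, with the tRNA gene TDEL0Etrna12V (75008 to 75081), then the 400-bp gene TDEL0E00330 (75774 to 76173), the 1338-bp gene TDEL0E00340 (76859 to 78196) and SIR1 (79261 to 80661). On chromosome 7 a tRNA gene likewise came first, TDEL0Gtrna5V (35548 to 35621), then the 400-bp gene TDEL0G00190 (36313 to 36712) and the 1338-bp gene TDEL0G00200 (37398 to 38735). The spacing between the tRNA gene and the 400-bp gene was 692 bp on chromosome 5 and 691 bp on chromosome 7, and both tRNA genes were 74 bp long. The pair beside SLA2 lay at least 240.7 kb from a chromosome end, the pair near SIR1 75.8 kb and the chromosome 7 pair 36.3 kb.

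In wild-type cells both proteins were found at all 3 pairs, over the 400-bp gene and the stretch on its outer side, that is, the side away from the 1338-bp gene. Beside SLA2 the strongest Kos3 peak ran from 1050847 to 1051656 with a fold of 4.9 in library 1 and from 1050825 to 1051591 with a fold of 6.98 in library 2. The strongest Orc1 peak there ran from 1050752 to 1051876 with a fold of 7.5 in library 1 and from 1050692 to 1051851 with a fold of 12.5 in library 2. A fold is the authors' enrichment of the immunoprecipitate over background at a peak. It is used here only to describe and rank peaks within a list. Both proteins thus covered the same stretch, which held most or all of TDEL0C05820 and the near end of SLA2.

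Near SIR1 the wild-type peaks were wider. The main Kos3 peak ran from 73119 to 76639 (fold 19.5) in library 1 and from 72931 to 76601 (fold 21.2) in library 2, and in both lists it was the peak with the highest fold of all. Orc1 library 1 had its main peak from 72601 to 76732 (fold 24.8), the second highest of its 300 peaks. Orc1 library 2 instead had a single peak of 31273 bp, from 48121 to 79393 (fold 9.16), whose summit at 51845 lay outside the window. This peak covered TDEL0E00330, TDEL0E00340 and the start of SIR1 without a break. Wherever lengths near SIR1 are given below, the part of that peak inside the window, 11394 bp, is used unless the whole peak is named.

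On chromosome 7 the main Kos3 peak ran from 34411 to 36782 (fold 9.74) in library 1 and from 34770 to 37776 (fold 12.1) in library 2, each the fourth highest of its list. The main Orc1 peak ran from 34477 to 37097 (fold 12.9) in library 1 and from 34588 to 39618 (fold 14.3) in library 2. All 4 peaks covered the tRNA gene TDEL0Gtrna5V and the whole of TDEL0G00190.

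Among the weaker wild-type peaks in the windows, some lay in or near the 1338-bp gene. Beside SLA2, Kos3 had a summit at 1048705 in library 1 and at 1048622 in library 2, and Orc1 had one at 1048664 in library 1 and at 1048622 in library 2, all between TDEL0C05800 and TDEL0C05810. Near SIR1, Kos3 had a summit at 78224 in library 1 and at 78275 in library 2, just beyond the outer end of TDEL0E00340. On chromosome 7 the Kos3 summits at 38063 in library 1 and 38175 in library 2, and the Orc1 summit at 38328 in library 1, lay inside TDEL0G00200. The folds of these Kos3 peaks were 2.28 and 2.29 beside SLA2, 3.31 and 3.38 near SIR1, and 2.84 and 2.93 on chromosome 7 (library 1 first), each below the main peak of the same place in the same list. Near SIR1 other weaker Kos3 peaks had higher folds. They ran from 78494 to 79252 (fold 3.54) in library 1, and from 78618 to 79495 (fold 3.77) and from 71200 to 71717 (fold 3.68) in library 2. The last lay on the far side of the tRNA gene.

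Every wild-type Kos3 region at the 3 places overlapped an Orc1 peak, as did nearly all wild-type Kos3 regions anywhere. A wild-type region is here a stretch of linked peaks found in both wild-type libraries of a protein. Of 10 such Kos3 regions, 10 overlapped a peak of at least one wild-type Orc1 list, where 96.8% of all 62 wild-type Kos3 regions did. The regions from 77919 to 78461 and from 78494 to 79495 near SIR1 overlapped no peak of Orc1 library 1. They met only the 31273-bp peak of Orc1 library 2.

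**Figure D1:**
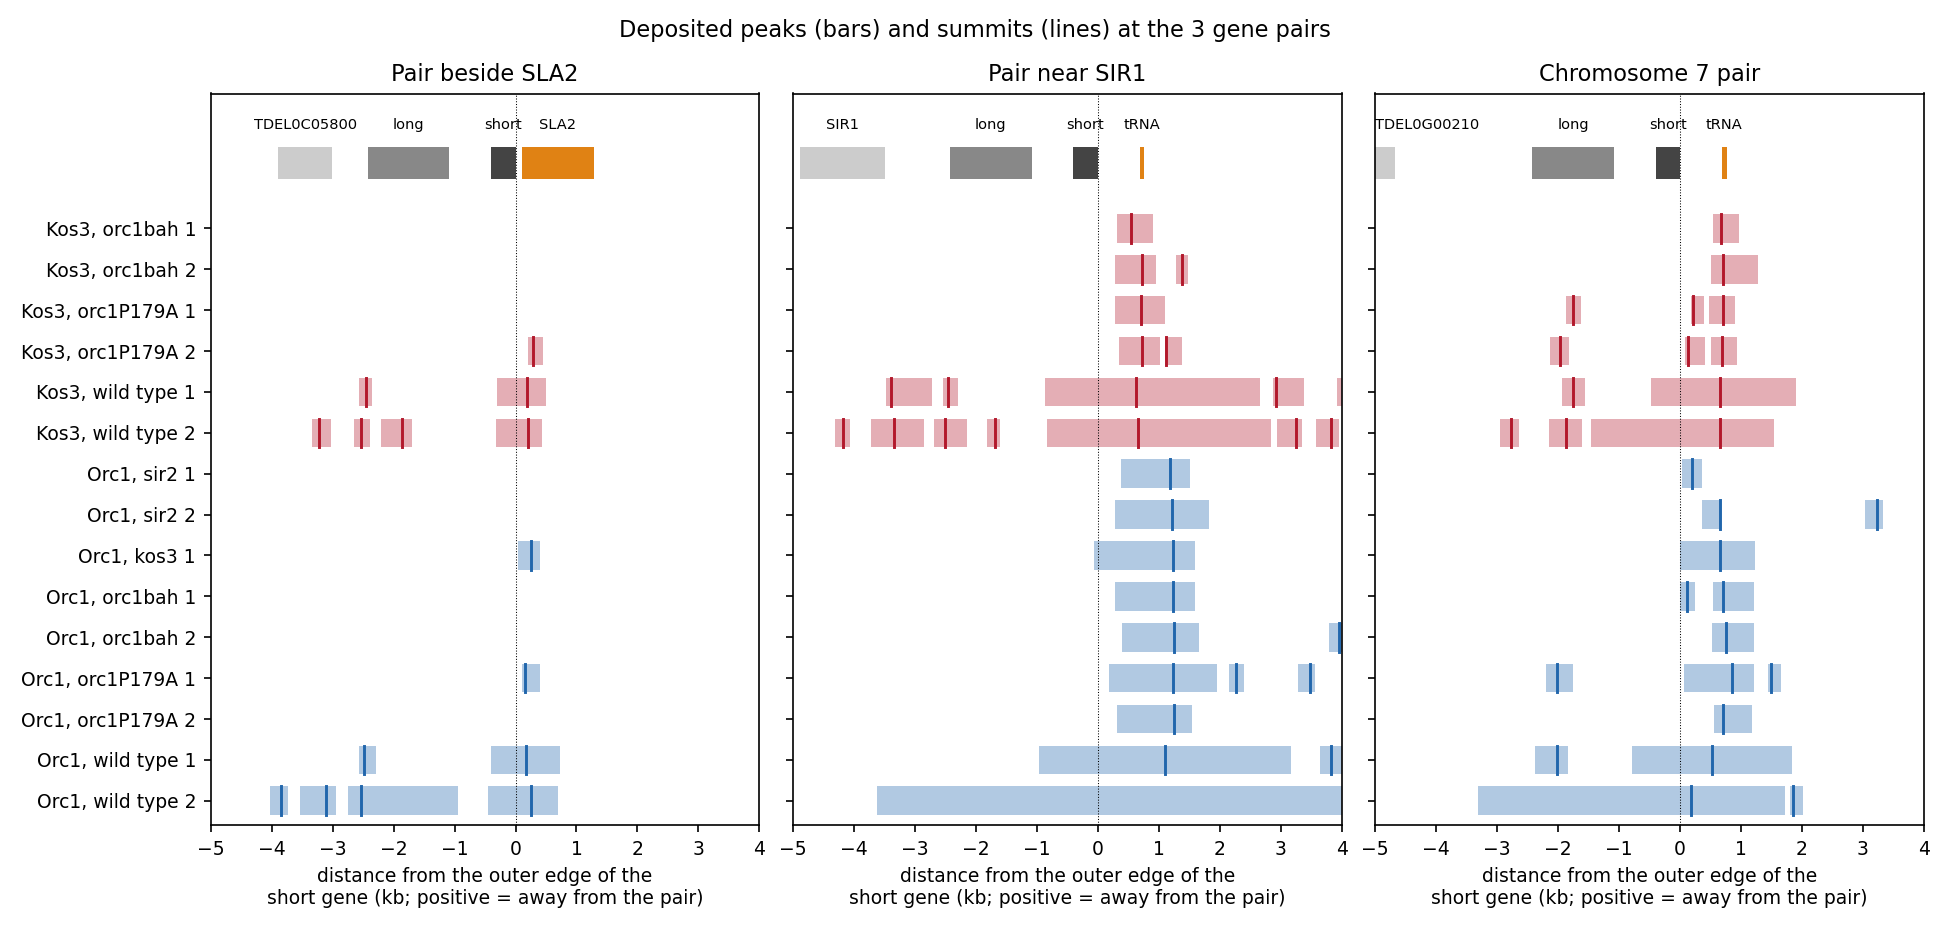
Deposited peaks (bars) and their summits (dark lines) in each library (rows; Kos3 red, Orc1 blue) at the 3 gene pairs, against the distance in kb from the outer edge of the 400-bp gene, drawn so that the pair always lies to the left of 0. Gene boxes stand at the top (short, 400 bp; long, 1338 bp), and the map is cut at its edges; wild-type peaks span the 400-bp gene at all 3 pairs, whereas mutant peaks lie mostly to its right.

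Beside SLA2 most mutant lists held no peak. Kos3 peaks there covered 0 and 0 bp in the orc1bah libraries and 0 and 249 bp in the orc1P179A libraries, against 1022 and 1841 bp in the wild-type libraries. Orc1 peaks covered 290 and 0 bp in orc1P179A, 0 and 0 bp in orc1bah, 368 bp in kos3 and 0 and 0 bp in sir2, against 1408 and 3851 bp in the wild type. A peak was thus listed in 1 of 4 mutant Kos3 lists and in 2 of 7 mutant Orc1 lists, and in all 4 wild-type lists. Each of the 3 mutant peaks was a single short one with its summit inside SLA2. The summit lay at 1051446 for Kos3 in orc1P179A library 2, at 1051404 for Orc1 in kos3 and at 1051310 for Orc1 in orc1P179A library 1. The peak in kos3 ran from 1051187 to 1051554 and so began before the start of SLA2.

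Near SIR1 a peak remained in all 15 lists, but over a shorter stretch in every mutant library. Kos3 peaks covered 604 and 885 bp in orc1bah cells and 830 and 956 bp in orc1P179A cells, against 6657 and 7976 bp in the wild type. Orc1 peaks covered 2316 and 1237 bp in orc1P179A, 1301 and 1596 bp in orc1bah, 1650 bp in kos3 and 1133 and 1545 bp in sir2, against 4689 and 11394 bp in the wild type. The ranges of the mutant and wild-type libraries did not overlap for either protein. As a ratio of group means with the SD of the ratio, Kos3 covered 0.102 ± 0.0301 of the wild-type length in orc1bah and 0.122 ± 0.0198 in orc1P179A (n = 2 libraries in each group).

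The chromosome 7 pair also kept a peak in all 15 lists. Kos3 peaks covered 435 and 765 bp in orc1bah cells and 888 and 1060 bp in orc1P179A cells, against 2755 and 3870 bp in the wild type. Orc1 peaks covered 1818 and 618 bp in orc1P179A, 910 and 691 bp in orc1bah, 1229 bp in kos3 and 325 and 604 bp in sir2, against 3151 and 5244 bp in the wild type. Again no mutant library reached either wild-type library. The Orc1 ratio of means was 0.290 ± 0.227 in orc1P179A, 0.191 ± 0.0767 in orc1bah, 0.293 ± 0.103 in kos3 and 0.111 ± 0.0611 in sir2. Here and below, the SD given for kos3, with 1 library, holds only the spread of the wild-type libraries. Both sir2 libraries lay below those of the other 3 mutants, at most 604 bp against at least 618 bp, a gap smaller than the spread within sir2. Here, and at the other places, 2 libraries against 2 allow no exact two-sided permutation p below 0.333, and no p-value is given.

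**Figure D2:**
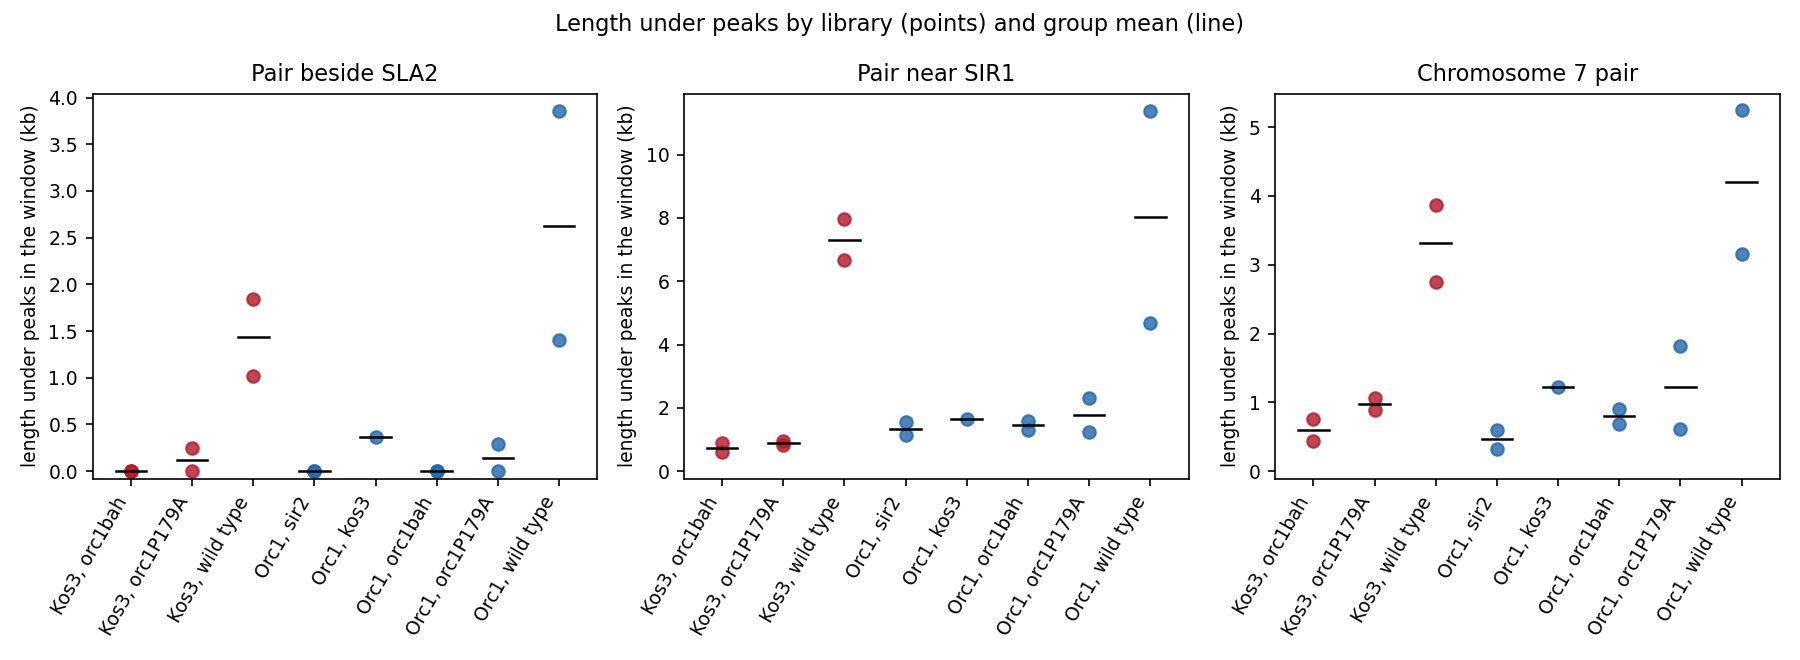
Length under deposited peaks inside each window (kb, linear axis from 0, a different scale in each panel) for each library (points; Kos3 red, Orc1 blue) and the mean of each group (line). All mutant points lie below both wild-type points of the same protein at each of the 3 pairs.

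Over the 3 places together, Kos3 peaks covered 1.04 and 1.65 kb in orc1bah cells and 1.72 and 2.27 kb in orc1P179A cells, against 10.4 and 13.7 kb in the wild type. The mean fold weighted by length was 3.08 and 4.2 in the orc1bah lists, 4.12 and 2.3 in the orc1P179A lists and 10.2 and 10 in the wild-type lists. These means describe each list on its own. The ratio of mean lengths was 0.111 ± 0.0417 in orc1bah and 0.165 ± 0.0449 in orc1P179A. Kos3 peaks elsewhere on chromosomes 1 to 7 were shorter in sum as well, with ratios of 0.234 ± 0.0719 in orc1bah and 0.231 in orc1P179A. On chromosomes 1 to 7 Kos3 peaks were thus shorter in sum in both mutants outside the 3 places too, and the places were not tested against the rest. Chromosome 8 was left out of these sums. There the orc1bah Kos3 lists had 5 and 5 peaks and the orc1P179A lists 688 and 679, against 12 and 19 in the wild type.

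Orc1 peaks over the 3 windows covered 4.42 and 1.85 kb in orc1P179A, 2.21 and 2.29 kb in orc1bah, 3.25 kb in kos3 and 1.46 and 2.15 kb in sir2, against 9.25 and 20.5 kb in the wild type. The mean fold weighted by length was 7.72 and 9.78 in orc1P179A, 9.28 and 9.4 in orc1bah, 8.29 in kos3, 8.47 and 7.85 in sir2, against 16.1 and 9.54 in the wild type. The ratio of mean lengths inside the windows was 0.211 ± 0.166 in orc1P179A, 0.151 ± 0.0809 in orc1bah, 0.218 ± 0.117 in kos3 and 0.121 ± 0.0727 in sir2. With whole peaks, which count the 31273-bp peak in full, the ratios were 0.127 in orc1P179A, 0.0907 in orc1bah, 0.131 in kos3 and 0.0727 in sir2. Outside the 3 places, Orc1 peaks on chromosomes 1 to 7 covered 0.680 ± 0.0994 of the wild-type length in orc1P179A, 0.710 ± 0.112 in orc1bah, 0.786 ± 0.115 in kos3 and 0.778 ± 0.114 in sir2. The difference between mutant and wild type at the 3 places was thus larger in proportion than over the rest of these chromosomes in each of the 4 mutants, but the contrast was not tested, since the places were selected on it.

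The 2 wild-type Orc1 libraries differed from each other in strain, in the input named in the file name and in covered length. Against wild-type library 1 alone, which shares its input with sir2 and kos3, the ratio over the 3 places was 0.195 in sir2 and 0.351 in kos3. Against wild-type library 2 alone, which shares its input with both orc1 alleles, the ratio inside the windows was 0.110 in orc1bah and 0.153 in orc1P179A. The mutants were shorter under either comparison, by a factor that depended on the wild-type library. In wild-type cells Kos3 covered 0.811 of the Orc1 length inside the windows, and the libraries overlapped, at 10.4 and 13.7 kb for Kos3 and 9.25 and 20.5 kb for Orc1.

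The nearest comparison among named loci was the stretch that holds HMLALPHA1 and HMLALPHA2, whose symbols are those of the silent mating-type locus HML, on chromosome 3, with 5 kb on either side. Orc1 peaks there covered 0.206 ± 0.0963 of the wild-type length in orc1P179A, 0.199 ± 0.0855 in orc1bah, 0.271 ± 0.113 in kos3 and 0.131 ± 0.055 in sir2. Kos3 peaks covered 0.114 ± 0.0673 in orc1bah and 0.192 ± 0.0659 in orc1P179A. These ratios lay within 1 SD of those of the 3 gene pairs for both proteins and all mutants, but the wild-type libraries are shared between the comparisons and the difference was not tested. For kos3 that SD leaves out any spread among kos3 libraries.

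In the mutants the 400-bp genes were under peaks over little or none of their length. TDEL0C05820, the 400-bp gene beside SLA2, had 0% of its bases under peaks in all 4 mutant Kos3 lists, against 76.2% and 81.8% in the wild-type lists. For Orc1 it had 0% in all 7 mutant lists, against 100% in both wild-type lists. TDEL0E00330, near SIR1, was under no Kos3 peak in any mutant list, against 100% in both wild-type lists. Its bases under Orc1 peaks came to 0% in orc1P179A, orc1bah and sir2 and to 13.8% in kos3, against 100% in both wild-type lists. TDEL0G00190, on chromosome 7, gave the same picture, with 0% in every mutant list of both proteins except kos3 at 1%, against 100% in all 4 wild-type lists.

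These counts were set beside all genes of chromosomes 1 to 7 that had at least 50% of their bases under peaks in both wild-type lists of a protein. Of 97 such genes for Orc1, the share with 0 bases under peaks in every library of a mutant was 6.19% in orc1P179A, 11.3% in orc1bah, 7.22% in kos3 and 14.4% in sir2. The 400-bp genes counted 3 of 3 in sir2, orc1bah and orc1P179A, and 1 of 3 in kos3, where only TDEL0C05820 was bare. Of 16 such genes for Kos3, the share was 56.2% in orc1bah and 43.8% in orc1P179A, and the 400-bp genes counted 3 of 3 in both. Because the places were chosen with these lists in view, nothing is read from the difference between the members and the background.

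The 400-bp genes were not alone in this. Of all 97 genes for Orc1, 6 were bare in orc1P179A, 11 in orc1bah, 7 in kos3 and 14 in sir2. Of all 16 genes for Kos3, 9 were bare in orc1bah and 7 in orc1P179A. Some of these bare genes lay within 20 kb of a chromosome end, and those are left out below. Among genes more than 20 kb from an end, 85 were covered by wild-type Orc1 in this way, and 5 of them were bare in orc1P179A, 6 in orc1bah, 3 in kos3 and 6 in sir2. In sir2 these were TDEL0C05820, TDEL0E00330, TDEL0G00190, SLA2, the tRNA gene TDEL0Gtrna5V and TDEL0D06610 on chromosome 4. In orc1P179A they were the 3 400-bp genes, TDEL0D06610 and TMA7, and in orc1bah the same genes and SLA2. In kos3 they were TDEL0C05820, TDEL0D06610 and the tRNA gene TDEL0Atrna10S. For Kos3, 6 such genes were covered in the wild type, and the 3 that were bare in orc1bah, as in orc1P179A, were TDEL0C05820, TDEL0E00330 and TDEL0G00190. TDEL0D06610, TMA7 and TDEL0Atrna10S were named after these values were seen.

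The 1338-bp genes varied more between libraries. TDEL0C05810 had 5.75% and 41% of its bases under Kos3 peaks and 10.5% and 100% under Orc1 peaks in the wild type, with 0% in every mutant list. TDEL0E00340 had 10% and 35.8% under Kos3 and 0% and 100% under Orc1 in the wild type, with 0% in every mutant list. TDEL0G00200 still lay under peaks in orc1P179A cells. It had 18.5% and 22.8% under Kos3 in orc1P179A, against 28.6% and 69.1% in the wild type, and 33.5% and 0% under Orc1 in orc1P179A, against 39.6% and 100% in the wild type. Its summits in orc1P179A, at 38067 and 38273 for Kos3 and at 38328 for Orc1 in library 1, lay within the span of the wild-type summits in the same gene, from 38063 to 38328. These Kos3 peaks had folds of 1.97 and 1.73 and ranked 23 of 37 and 38 of 47 among the peaks of chromosomes 1 to 7 in their lists. The space between the 2 genes of a pair held no peak in any mutant list at any of the 3 places.

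The tRNA genes outside the pair lay under peaks in most mutant lists. TDEL0Etrna12V, on the outer side of TDEL0E00330, had 100% of its bases under peaks in all 15 lists. TDEL0Gtrna5V, on the outer side of TDEL0G00190, had 100% in all lists but those of sir2, where both had 0%. In sir2 library 2 a peak from 35643 to 35955 began just past the end of that tRNA gene, and in library 1 the peak ran from 35953 to 36277. SLA2, the neighbour in the same position on chromosome 3, had 0% and 0% of its bases under Kos3 peaks in orc1bah and 0% and 21.2% in orc1P179A, against 33.8% and 28.2% in the wild type. Under Orc1 peaks it had 24.7% and 0% in orc1P179A, 0% and 0% in orc1bah, 25.1% in kos3 and 0% and 0% in sir2, against 52.5% and 50.3% in the wild type. The pairs flanked by a tRNA gene thus kept an outer peak in every mutant list, and the pair flanked by SLA2 did not. Some of these chromosome 7 peaks were weak. Their −log10 q was 7.63 and 2.62 in sir2 (library 1 first) and 7.32 for Kos3 in orc1P179A library 2. Once peaks below 10 were dropped, the sir2 length ratio on chromosome 7 was 0. The highest wild-type Kos3 folds were also lowest beside SLA2, at 4.9 and 6.98 against 9.74 and 12.1 on chromosome 7. Whether the contrast follows the flanking gene or the peak strength was not tested.

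**Figure D3:**
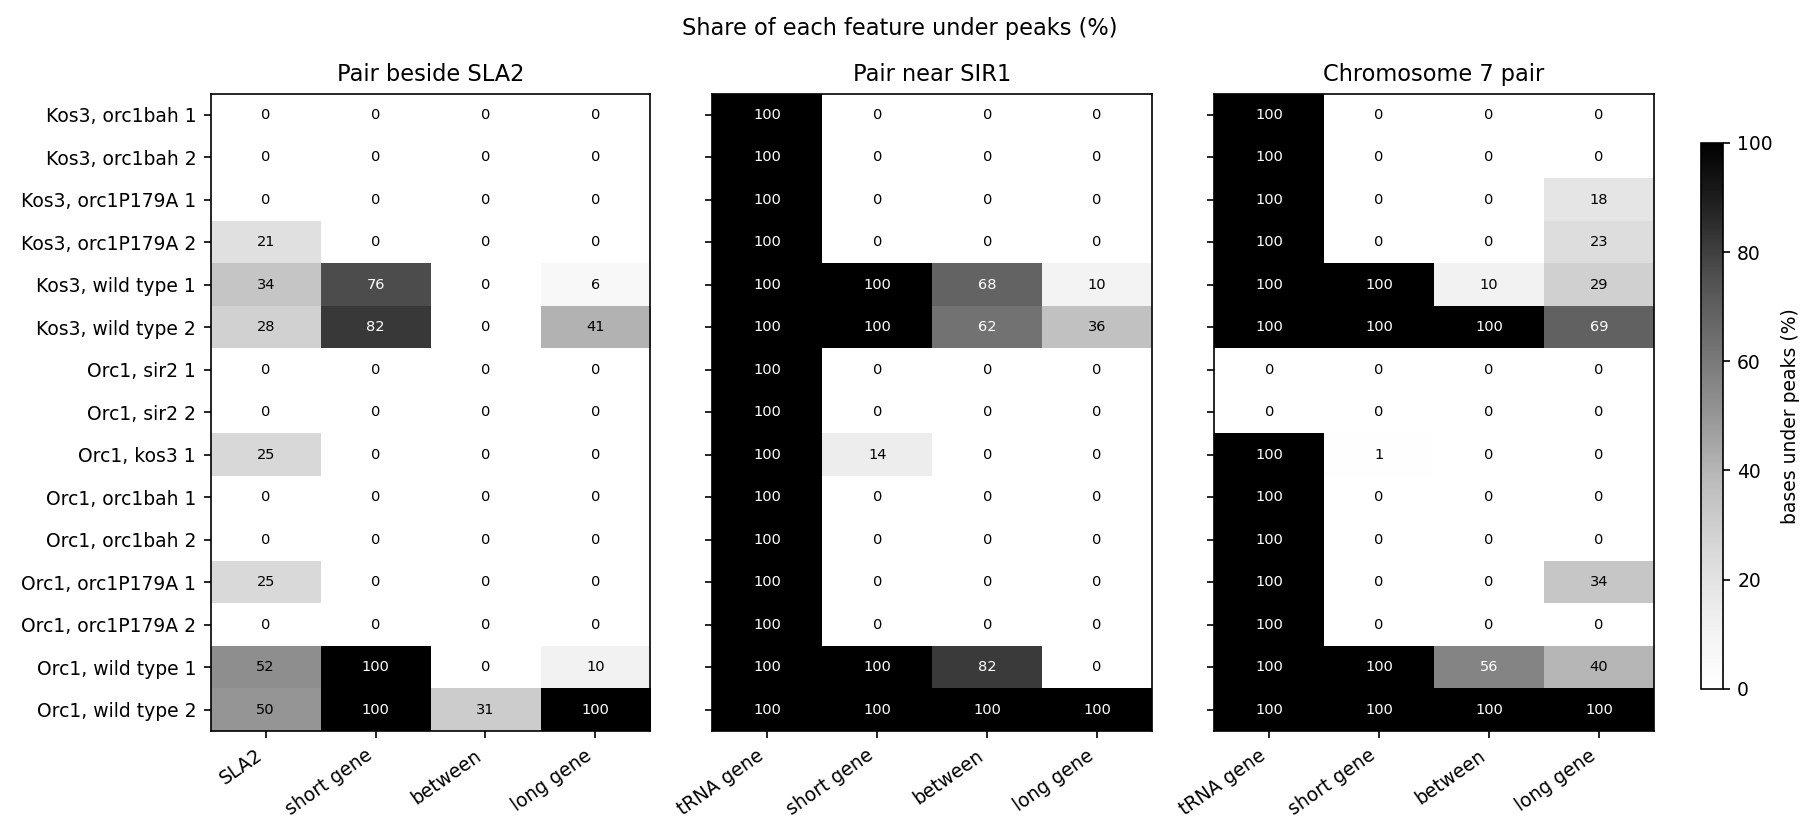
Share of the bases of each feature that lay under deposited peaks (%, shaded from 0 to 100 and rounded to whole percent) in each library (rows) for the outer neighbour, the 400-bp gene, the space between the genes and the 1338-bp gene of each pair. The 400-bp genes are at 76% or more in all wild-type rows and at 14% or less in all mutant rows, whereas the tRNA genes are at 100% in all rows but those of Orc1 in sir2 on chromosome 7.

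Kos3 met few tRNA genes anywhere. Wild-type Kos3 regions overlapped 6 of 193 tRNA genes of the table (3.11%), and these 6 included the tRNA genes of both pairs. Only TDEL0Etrna12V and TDEL0Gtrna5V were overlapped in all 4 mutant Kos3 lists, while TDEL0Gtrna8T was overlapped in 3 lists, TDEL0Gtrna4V in 1 and TDEL0Ftrna2V and TDEL0Ftrna5T in 0. Wild-type Orc1 regions overlapped 52 tRNA genes (26.9%), of which 27 were overlapped in all 7 mutant lists. TDEL0Etrna12V was among these 27, and TDEL0Gtrna5V, overlapped in 5 mutant lists, was not.

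Counted as regions rather than bases, 8 of 10 wild-type Kos3 regions at the 3 places had no peak in either orc1bah list, and 6 of 10 had none in either orc1P179A list. Over all 62 wild-type Kos3 regions the share was 61.3% in orc1bah and 50% in orc1P179A. For Orc1 the 3 places held 4 wild-type regions, of which 1 was missing in orc1P179A, 2 in orc1bah, 1 in kos3 and 2 in sir2. Over all 235 wild-type Orc1 regions the share was 5.96% in orc1P179A, 9.36% in orc1bah, 5.11% in kos3 and 6.38% in sir2. Near SIR1 and on chromosome 7 the wild-type Orc1 regions are wide, and a shorter remaining peak anywhere in such a region counts it as present. These regions were among the values on which the places were selected, and nothing is read from the shares.

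Near SIR1 the strongest summits of Kos3 and Orc1 lay apart in every list with a summit in the window. Near SIR1 the Kos3 summits lay from 554 to 728 bp outward of TDEL0E00330 with a median of 680.5 bp in 6 lists, in or next to the tRNA gene. The Orc1 summits lay from 1104 to 1255 bp outward with a median of 1236 bp in 8 lists, beyond the tRNA gene, leaving out wild-type library 2 with its summit outside the window. The ranges of the proteins did not overlap. Within strains used for both proteins, the Kos3 and Orc1 summits were 519 to 700 bp apart, with a median of 532.5 bp over 6 pairs of libraries, all from orc1bah and orc1P179A cells. These pairs of libraries share members, so they are not independent.

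On chromosome 7 the Kos3 summits lay from 653 to 709 bp outward of TDEL0G00190, with a median of 682 bp in 6 lists, and all 6 were within 100 bp of the middle of TDEL0Gtrna5V. The Orc1 summits spread from 174 to 3229 bp with a median of 700 bp in 9 lists, and 4 of 9 were within 100 bp of the middle of the tRNA gene. The Orc1 summit at 3229 bp belonged to sir2 library 2, where the peak with the highest fold, from 32981 to 33271, lay in TDEL0G00180 (fold 1.81) and the one by the tRNA gene had a fold of 1.8. Orc1 in wild-type library 2 had its summit at 174 bp and in library 1 at 525 bp, closer to TDEL0G00190 than in any orc1bah, orc1P179A or kos3 list. In sir2 library 1 the summit lay at 205 bp, between the wild-type values. In shared strains the Kos3 and Orc1 summits were 5 to 148 bp apart in the mutants and 479 bp apart in both wild-type pairs of libraries.

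Beside SLA2 the Kos3 summits lay from 190 to 295 bp outward of TDEL0C05820 in 3 lists and the Orc1 summits from 159 to 253 bp in 4 lists, all inside SLA2. In the wild-type strain used for both proteins the summits were 56 and 45 bp apart. For scale, overlapping Kos3 and Orc1 peaks of the same strain anywhere on chromosomes 1 to 7 had summits a median of 98 to 260 bp apart in the mutants and of 1860 and 1930 bp in the wild type. The separation near SIR1 thus exceeded the median of every mutant pair of libraries, and that on chromosome 7 was below it in all 6 of them.

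**Figure D4:**
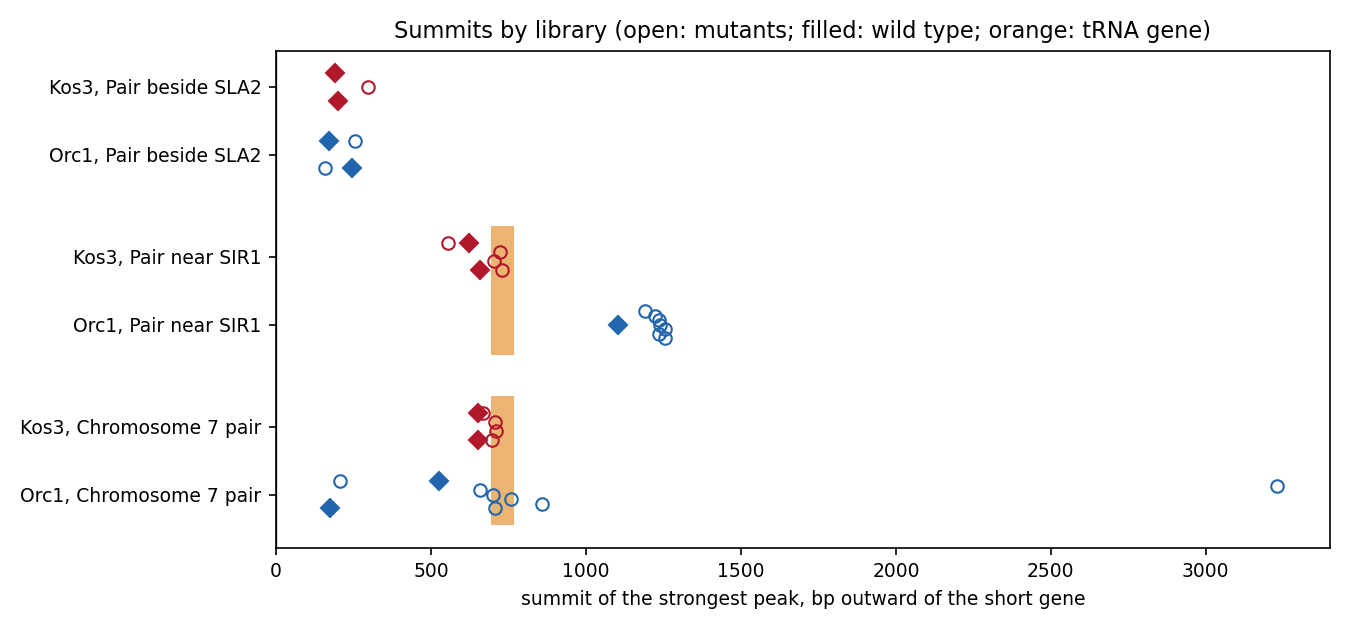
Summit of the strongest peak in each library, in bp outward of the 400-bp gene (open circles, mutants; diamonds, wild type; Kos3 red, Orc1 blue; orange band, tRNA gene; points are spread vertically for legibility). Near SIR1 the Kos3 summits end at 728 bp and the Orc1 summits begin at 1104 bp, whereas on chromosome 7 the ranges overlap, with all 6 Kos3 summits and 4 of 9 Orc1 summits within 100 bp of the middle of the tRNA gene.

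Within lists the 3 places kept an order. By the highest fold at each place, the pair near SIR1 ranked above the chromosome 7 pair, and that above the pair beside SLA2, in 13 of 15 lists, with a place that had no peak put last. The 2 exceptions were Orc1 in kos3, with 3.82 beside SLA2 and 3.68 on chromosome 7, and Orc1 in wild-type library 2, where the fold near SIR1 belongs to the 31273-bp peak with its summit outside the window. Ranks are given among the peaks of chromosomes 1 to 7 of each list. Chromosome 8 held 300 and 446 peaks of the Orc1 lists in orc1P179A and 403 and 419 in sir2, against 34 and 34 in the wild type. For Kos3 the peak near SIR1 ranked 5 of 28 and 2 of 45 in orc1bah, 1 of 37 and 4 of 47 in orc1P179A, and 1 of 93 and 1 of 100 in the wild type. The Kos3 peak on chromosome 7 ranked 7 and 9 in orc1bah, 4 and 10 in orc1P179A and 4 in both wild-type lists. Beside SLA2 the orc1P179A Kos3 peak ranked 18 of 47, and the wild-type ones 13 and 11. The peak near SIR1 was thus among the 5 highest of these chromosomes in every Kos3 list.

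For Orc1 the peak near SIR1 ranked 11 of 230 and 21 of 223 in orc1P179A, 20 of 236 and 36 of 248 in orc1bah, 33 of 264 in kos3, 59 of 248 and 67 of 252 in sir2, and 2 of 266 in wild-type library 1. The Orc1 peak on chromosome 7 ranked 171 of 230 and 170 of 223 in orc1P179A, 175 of 236 and 182 of 248 in orc1bah, 173 of 264 in kos3 and 196 of 248 and 247 of 252 in sir2. In the wild-type lists it ranked 39 of 266 and 41 of 274. The lists differ in length and were called separately, so these ranks describe each list and show no change between lists.

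Some peaks lay not far outside the windows. Orc1 had a peak 4.55 kb beyond the window beside SLA2, from 1059546 to 1060666 with a fold of 11.1 in wild-type library 1, and likewise a fold of 10.8 in kos3 and of 10.3 and 13.2 in orc1bah. The nearest Orc1 peak on that side was in sir2 library 2, from 1058942 to 1059270 with a fold of 1.97, 3.94 kb outside. An Orc1 peak next to the SLA2 window was thus listed in libraries whose lists held none over TDEL0C05820. Kos3 in wild-type library 1 had a peak from 67153 to 67404 with a fold of 2.56, 0.596 kb outside the window near SIR1. Just inside the same window, Kos3 in wild-type library 2 had a peak from 68165 to 68474 with a fold of 2.41.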

How the data were processed

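Orc1-MYC and Kos3-V5 ChIP-seq gave 15 libraries with 1 deposited peak list each, and 2 input libraries without a list used here. Per the submitters' processing notes, Bowtie2 2.3.4.1 and MACS2 2.2.7.1 were used; the build, the threshold and the handling of reads with several positions are not given in the sources used here. For each peak the deposited file gives a fold (a linear ratio over background), −log10 p-values and −log10 q-values, and a score of 10 times the −log10 q, all computed by the authors; the lowest −log10 q was 1.31. Peak names hold the word subsample, and in 3 deposited lists they carry another replicate number than the label; labels were followed. Lists hold no counts, so the depth is unknown. Per the file names, input 1 served wild-type Orc1 library 1, sir2 and kos3, and input 2 the rest.

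List entries were read in ascending order as chromosomes 1 to 8, and gene positions came from RefSeq assembly ASM24337v1; coordinates are 1-based. Covered length is the sum of the lengths of overlapping peaks. Groups were compared by means and SDs with Python 3.11.15, pandas 2.3.3 and numpy 2.4.6, and the code was tested on simulated data. Named genes were the 6 members, their neighbours, SLA2 and SIR1; copies could not be sought by protein comparison. Members and lists were chosen with earlier results of these data known.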

Additional observations from a re-analysis of the deposited data

How the results depend on the processing

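Peak lists carry no counts, so depth limits all values to an unknown extent, and a missing peak may lie just below the threshold. Leaving out 1 library at a time, the ratio over the 3 places with whole peaks ranged from 0.0447 to 0.195 for sir2, 0.0804 to 0.351 for kos3, 0.0557 to 0.243 for orc1bah and 0.0748 to 0.339 for orc1P179A Orc1, from 0.0861 to 0.137 for orc1bah and 0.142 to 0.191 for orc1P179A Kos3, and from 0.299 to 1.3 for wild-type Kos3 over Orc1. That last ratio turned round without wild-type Orc1 library 2, to 1.3 in all, 1.02 beside SLA2, 1.56 near SIR1 and 1.05 on chromosome 7, and without library 1 it was 0.234 near SIR1 and 0.632 on chromosome 7. With a −log10 q of at least 5 the ratio for orc1P179A Kos3 was 0.109, and with at least 10 it was 0.107. With at least 10 the missing regions numbered 0 for kos3, 1 for orc1bah Orc1 and 4 for orc1bah Kos3. That cut also took peaks out of the wild-type lists, so fewer wild-type regions were left to be missing. How many were left is not given, so these counts show no smaller share missing. Leaving out 1 library, missing regions ranged from 2 to 5 for sir2, 4 to 4 for kos3, 2 to 5 for orc1bah, 1 to 4 for orc1P179A Orc1, 8 to 16 for orc1bah Kos3 and 6 to 14 for orc1P179A Kos3. The highest of these counts came from leaving out 1 wild-type library, since a region then needed a peak in only the 1 remaining wild-type list. The cause of the other shifts was not tested. The counts of bare 400-bp genes stayed the same on leaving out any 1 library, but this was fixed in advance. A gene had to be bare in every library of a mutant, so leaving out a mutant library could only raise a count. The counts already stood at 3 of 3 in all mutants but kos3, which had 1 library. Wild-type libraries do not enter these counts. For the 3 places together, 109 alternative values stayed within the spread of the libraries or within 1.5 times the count, 20 moved further and 1 turned round. For single places 131 stayed, 41 were counted as moved and 3 turned round. Those counted as moved include all alternatives beside SLA2 for sir2 Orc1, orc1bah Orc1 and orc1bah Kos3. These values were 0, as were the main value and its spread, so they did not change. The order of the places held in 10 of 15 lists with a −log10 q of at least 10.

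No label pairs same-numbered libraries, though wild-type Kos3 library 2 and wild-type Orc1 library 2 share a strain and an input. Over 842 bins of 10 kb the deviations of same-numbered libraries correlated at 0.02 for sir2, 0.04 for orc1bah and -0.27 for orc1P179A. For Kos3 the values were 0.37 in orc1bah and -0.03 in orc1P179A, and for wild-type Kos3 with Orc1 0.55. With whole peaks, ratios within replicate numbers (replicate block) were 0.0916 for sir2, 0.116 for orc1bah and 0.148 for orc1P179A. They were 0.11 for orc1bah Kos3, 0.165 for orc1P179A Kos3 and 0.618 for Kos3 over Orc1. A block value is the geometric mean of the paired ratios. The crossed pairing for orc1P179A thus gave 0.148 by construction and says nothing about the pairing. No block value could be had where a library was at 0 beside SLA2, and kos3, with 1 library, could not be left out.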
